A study of Mus musculus with 12 samples.

Results

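The genes described here are 39 genes of the unfolded protein response and of protein folding in the endoplasmic reticulum (ER). They were taken by symbol from a list of the pathway. All 39 were among the 12212 gene symbols listed, and all 39 passed the filter on low counts that left 12081 genes for testing. They were measured in germinal center B cells sorted from the spleen of NZBWF1/J mice, a hybrid strain used as a model of lupus. The 12 libraries, of 1000 cells each, form 4 groups of 3: light zone treated, light zone control, dark zone treated and dark zone control. Treated mice received 200 ug CTLA4-Ig, a fusion protein that binds CD80 and CD86, and 250 ug anti-CD40L, an antibody to the T cell ligand of CD40, at each of 6 doses over 2 weeks from an age of 18 weeks. Control mice were untreated, and the labels give no age for them. All mice are of the same strain, and no genetic change is named. The labels do not say whether a library came from 1 mouse or from pooled mice, nor whether replicate numbers mark the same mice in both zones. P-values below therefore measure the spread between these libraries, which may be technical.

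Proteins made for secretion or for the cell surface enter the ER through the Sec61 channel, lose their signal peptide to signal peptidase, and are folded by the chaperone BiP and its partners, by the lectin chaperones of the glycoprotein cycle and by protein disulfide isomerases. Proteins that fail to fold are returned to the cytosol and degraded. When unfolded proteins accumulate, the sensors ATF6, IRE1 (encoded by Ern1) and PERK (encoded by Eif2ak3) raise the folding genes, slow translation and, through ATF4 and CHOP (encoded by Ddit3), can lead to cell death. The pathway is best known in B lineage cells for the XBP1-driven growth of the ER in plasma cells, and germinal center B cells give rise to plasma cells.

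Library totals ran from 16032746 to 26837714 counts, so that 3 counts, taken as the floor, amounted to between 0.112 and 0.187 CPM (read counts divided by the scaled library total). The floor covers counting error only. Light zone treated replicate 2 stood apart in a principal component analysis of all genes, and so did replicates 1 and 2 of the dark zone treated group. On the first component these 3 libraries scored 146.6 to 165.7, and the other 9 scored -102.9 to 20.42. Light zone treated replicate 3 stood apart on the second component, at -172.9, with the other 11 libraries at -19.24 to 66.04, and was kept with the other 9. Summed over 10 macrophage markers these 3 held 83.4 to 225 CPM, against 6.26 to 45.3 CPM in the other 9. Among the 10, the defining markers C1qa, C1qb, C1qc, Lyz2 and Vcam1 were under 1 CPM in each of the other 9. Summed over 9 plasma cell markers the 3 libraries held 1998 to 3327 CPM, against 8230 to 13670 CPM in the other 9, most of it Jchain. Jchain had 1109 to 2154 CPM in the 3 against 6206 to 11320 CPM, and Mzb1 542 to 722 CPM against 1543 to 2262 CPM. The other markers (Prdm1, Irf4, Xbp1, Sdc1, Slamf7, Ell2 and Cd28) overlapped between the 3 libraries and the other 9. Over 12 germinal center B cell markers the sums were 7161 to 7592 CPM in the 3 and 7103 to 11820 CPM in the other 9, and over 11 T cell markers 233 to 394 CPM in the 3 and 189 to 590 CPM in the other 9. Lck and Cd2 made up most of the T cell sum, and Cd4, Cd8a, Cd8b1, Il7r and Icos were under 1 CPM in each of the other 9. In the 3 libraries Cd4 had 0.916 to 5.38 CPM, against 0 to 0.152 CPM in the other 9, and Icos had 1.55 to 4.63 CPM, against 0 to 0.304 CPM. Cd3d (3.41 to 13.5 against 2.88 to 23.2 CPM) and Cd3g (1.58 to 10.5 against 0 to 28.5 CPM) overlapped, as did Cd5, Lck and Cd2. Averaged over both zones, 11 of 11 T cell markers were higher in treated libraries (median log2 difference 2.09), against 53.9% of all genes. Of these, 7 were under an edgeR unadjusted p of 0.05, against 16.7% of all genes, and edgeR called 0. Without the 3 libraries 5 of the 6 markers still tested were higher (median 0.49), against 43.9% of all genes. The median over the 39 genes in each comparison of treated libraries is therefore also given without these 3.

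Several folding genes carry the ER stress response element (ERSE) in their promoter, the sequence CCAAT followed, after 9 bases, by CCACG, which ATF6 and NF-Y bind. A shorter element, ERSE-II, joins ATTGG and CCACG with 1 base between. Windows of 300 bases, from 250 before to 50 after the gene start, were found for 32 of the 39 genes in the RefSeq promoter table (build GRCm38.p6, the assembly of mm10). On either strand, 9 of the 32 held an exact ERSE, which is 28.1%. The share was 0.137% of the 27025 genes in the table and 0.166% of its 17492 protein-coding genes. ERSE-II was in 2 of the 32 (Dnajb11 and Herpud1), against 0.0444% of all genes. The UPRE core TGACGTGG was in 0 of the 32, against 0.714% of all genes, and CCACG alone was in 26 of the 32 (81.25%), against 35.5%. These are matches of letters and not measured binding. The 39 genes were chosen by pathway, and several of its genes are known to carry the element, so the shares are a description. The segments below show the element in genes whose values are described next. Capitals mark its 2 boxes, the letters between them are the spacer, and each is read 5′ to 3′ in the direction of the gene.
Hspa5 (chr2:34772015-34772053, plus strand): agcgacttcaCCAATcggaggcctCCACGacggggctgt
Pdia6 (chr12:17266481-17266519, plus strand): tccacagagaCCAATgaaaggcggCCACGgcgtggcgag
Hsp90b1, nearer element (chr10:86705523-86705561, minus strand): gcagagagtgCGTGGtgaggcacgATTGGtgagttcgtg
Hsp90b1, farther element (chr10:86705628-86705666, minus strand): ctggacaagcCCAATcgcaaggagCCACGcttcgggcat
Calr (chr8:84847065-84847103, minus strand): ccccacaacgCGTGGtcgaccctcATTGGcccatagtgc
Creld2 (chr15:88819510-88819548, plus strand): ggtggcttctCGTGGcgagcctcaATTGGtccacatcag
Ero1lb (chr13:12565672-12565710, plus strand): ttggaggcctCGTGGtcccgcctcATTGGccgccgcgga
Herpud1, ERSE-II (chr8:94386367-94386397, plus strand): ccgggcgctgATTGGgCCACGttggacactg
In Hspa5 and Pdia6 the CCAAT box comes first. In Calr, Creld2, Ero1lb and the nearer element of Hsp90b1 the motif lies on the opposite strand, so the reversed boxes are in capitals. The elements end between 25 bases (Syvn1) and 193 bases (the farther one of Hsp90b1) before the gene start, apart from that of Dnajb11, which lies after it. For Hspa5 the distance is 46 bases from the RefSeq start, and GENCODE release M21 has the gene begin farther upstream, at base 34771970.

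**Figure D1:**
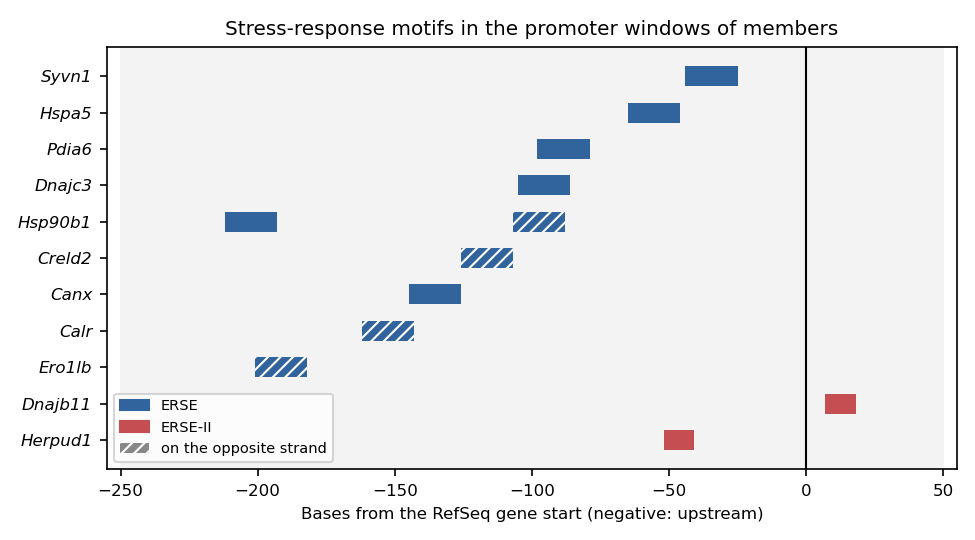
Position of each exact ERSE (blue) and ERSE-II (red) in the promoter windows of the 11 genes that hold one; the x axis gives bases from the RefSeq gene start, the grey area the window from 250 bases before to 50 after it, and hatching a motif on the opposite strand. Hsp90b1 holds 2 elements, and only the element of Dnajb11 lies after the start.

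Per kilobase of transcript, a rough scale because it rests on 1 annotated length per gene, small subunits of the entry machinery were the most abundant in the 6 control libraries. Spcs1, a subunit of signal peptidase, averaged 1425 ± 115 CPM per kilobase, Sec61b 1292 ± 159 and Sec61g, like it a small subunit of the Sec61 channel, 1282 ± 136 (SD over the 6 controls), and the ranges of the 3 overlapped. Hspa5 averaged 94.95 ± 40.6 CPM per kilobase and Pdia6 89.8 ± 41.0. The lowest were Ern1 at 0.721 ± 0.144, Atf6 at 2.04 ± 1.88 and Hyou1 at 4.65 ± 2.54. Together the 39 genes held 4050 CPM in the lowest library (dark zone treated replicate 1) and 8745 CPM in the highest (light zone treated replicate 3). This order depends on the scaling. As a share of unscaled counts they ran from 0.572% (dark zone treated replicate 3) to 0.861% (light zone treated replicate 2, with 5978 CPM). The kits keep no strand, and exons of 8 of the 39 share bases with another protein-coding gene (Spcs1 with Glt8d1, Ddit3 with Mars, and Pdia3, Pdia6, Manf, Spcs3, Syvn1 and Derl2). Transcripts of 8 have a copy of at least 200 bases and 95% identity elsewhere (Sec61g, Sec61b, Sec61a1, Spcs2, Derl1, Ero1lb, Hsp90b1 and Eif2ak3), so counts of these genes are less certain.

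**Figure D2:**
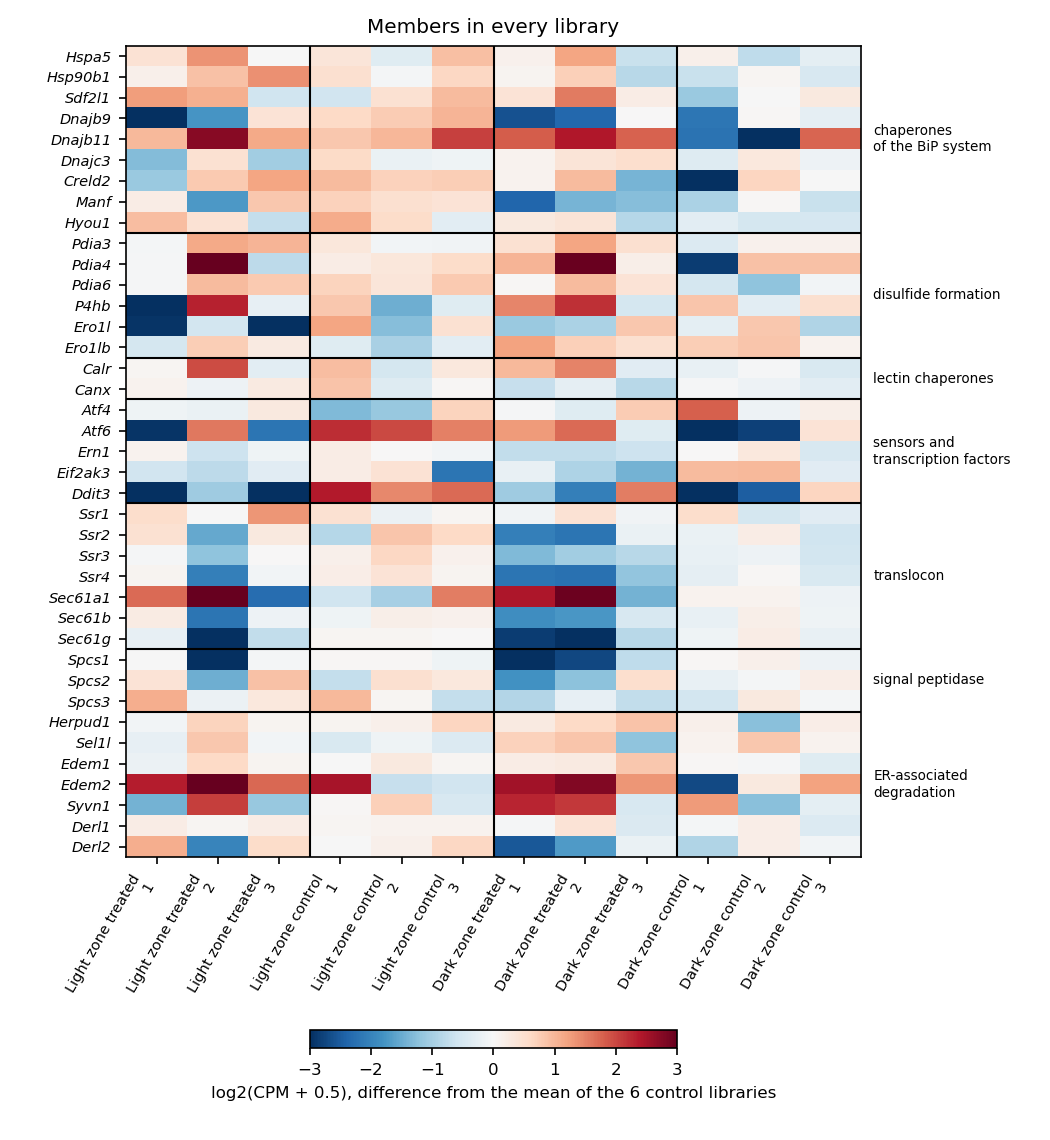
Each of the 39 genes (rows, by role) in each of the 12 libraries (columns), as log2(CPM + 0.5) minus its mean over the 6 control libraries; red is higher and blue lower, and colours stop at 3 and -3. The 3 libraries that stood apart show blue rows in the translocon and signal peptidase blocks, and the light zone control columns are mostly red in the BiP block.

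Light and dark zone cells of control mice were compared to describe these genes across the 2 zones without treatment. Of the 39 genes, 32 were higher in the light zone and 7 in the dark zone, with a median log2 difference of 0.43, while 50.1% of all tested genes were higher and their median was 0.0015. In this comparison edgeR's quasi-likelihood test called 0 of the 39 and 0% of the 12081 genes at an adjusted p of 0.05. At an unadjusted p under 0.05 there were 2 of the 39 (Pdia6 higher and Ero1lb lower) and 4.93% of all genes, and DESeq2 called 113 genes (0.966%) but 0 of the 39. All 3 light zone libraries lay above all 3 dark zone libraries for 8 genes (Atf6, Creld2, Ddit3, Dnajb9, Manf, Pdia6, Ssr3 and Ssr4), which 4.47% of all genes did, and below for 2 (Ero1lb and Sel1l), which 5.6% did. The median was 0.19 without light zone control replicate 1 and 0.29 without replicate 3, and leaving out the other control libraries in turn gave up to 0.45. In bulk libraries a smaller number of cells with a transcript and less of it per cell cannot be told apart.

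All 9 BiP chaperones and partners were higher in light zone control libraries, with a median log2 difference of 0.96 and a range of 0.18 to 1.35, none passing the adjusted threshold. Hspa5, which encodes BiP, the central ER chaperone (chr2:34771970-34777547, plus strand), had 377, 708 and 274 CPM in treated and 359, 216 and 517 CPM in control light zone libraries, and 304, 627 and 174 CPM in treated and 308, 165 and 225 CPM in control dark zone libraries. The light and dark zone control libraries overlapped, with a log2 difference of 0.65 (SE 0.54, edgeR unadjusted p = 0.257, adjusted p = 1). Hsp90b1 encodes GRP94, the ER form of the HSP90 chaperones, and had 211, 354 and 499 CPM in treated and 268, 185 and 297 CPM in control light zone libraries, and 202, 314 and 107 CPM in treated and 121, 201 and 137 CPM in control dark zone libraries. Only light zone control replicate 2 fell within the range of the dark zone control libraries. Manf, a small secreted protein that binds BiP, had 613, 158 and 911 CPM in treated and 847, 735 and 690.5 CPM in control light zone libraries, and 99.3, 198 and 217 CPM in treated and 271, 535 and 327 CPM in control dark zone libraries. Its light zone control libraries all lay above the dark zone ones, with a log2 difference of 1.0 (SE 0.56, edgeR unadjusted p = 0.1, adjusted p = 1). Hyou1, a large chaperone that exchanges nucleotide on BiP, had 35.8, 25.2 and 11.2 CPM in treated and 40.6, 27.5 and 14.7 CPM in control light zone libraries, and 23, 24.5 and 10.1 CPM in treated and 14.9, 12.8 and 12.9 CPM in control dark zone libraries. Light zone control replicate 3 lay within the dark zone control range and the other 2 above it. Sdf2l1, a partner of the BiP cochaperone encoded by Dnajb11, had 194, 169 and 53 CPM in treated and 54.1, 111 and 157 CPM in control light zone libraries, and 107, 240 and 93.7 CPM in treated and 36.8, 80.5 and 98.7 CPM in control dark zone libraries, with wide overlap between the zones. The other 4 are the J-domain cochaperones Dnajb9, Dnajb11 and Dnajc3 and the ER protein Creld2. Their log2 differences between the zones in control mice were 1.35, 1.12, 0.18 and 0.96, and the light zone control libraries of Dnajb9 and Creld2 all lay above the dark zone ones.

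Of the 6 genes of disulfide formation, 4 were higher in light zone control libraries, with a median log2 difference of 0.06. Pdia6, a disulfide isomerase (chr12:17266545-17284770, plus strand), had 170.4, 339 and 303 CPM in treated and 278, 227 and 302 CPM in control light zone libraries, and 179.7, 338 and 235 CPM in treated and 122, 75.5 and 166 CPM in control dark zone libraries. It averaged 269 ± 38.1 CPM in light zone control and 121 ± 45.3 CPM in dark zone control libraries (SD, n = 3 each), without overlap. The log2 difference was 1.15 (SE 0.40, edgeR unadjusted p = 0.0144, adjusted p = 1), the smallest unadjusted p among the 39 genes. Ero1lb, an oxidase that restores the disulfide isomerases, went the other way and had 48.4, 116 and 84.2 CPM in treated and 54, 34.9 and 55.6 CPM in control light zone libraries, and 162, 115 and 97.7 CPM in treated and 115, 124 and 74.2 CPM in control dark zone libraries. Its light zone control libraries all lay below the dark zone control libraries, with a log2 difference of -1.12 (SE 0.41, edgeR unadjusted p = 0.0202, adjusted p = 1). Ero1l, the other oxidase, had 2.34, 14.2 and 0.826 CPM in treated and 48.6, 8.49 and 29.3 CPM in control light zone libraries, and 9.47, 10.7 and 37.5 CPM in treated and 17.3, 37.8 and 11.2 CPM in control dark zone libraries. Its spread within groups was large and the zones overlapped. Pdia4, a further isomerase, had 14.2, 218 and 8.15 CPM in treated and 16.9, 18.3 and 21.3 CPM in control light zone libraries, and 29.7, 116 and 16.5 CPM in treated and 1.58, 26.9 and 27.2 CPM in control dark zone libraries. The control libraries of both zones overlapped, and the 2 highest libraries were dark zone treated replicate 2 and light zone treated replicate 2. Pdia3, the isomerase that works with calreticulin and calnexin, and P4hb, the founding disulfide isomerase, had log2 differences of 0.09 and -0.47 between the zones in control mice.

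Both lectin chaperones were higher in light zone control libraries without passing the test. Calr, which encodes calreticulin, had 140, 524 and 108 CPM in treated and 256, 94 and 169.7 CPM in control light zone libraries, and 267, 378 and 106 CPM in treated and 115, 132 and 99 CPM in control dark zone libraries. Light zone control replicate 2 was below every dark zone control library and the other 2 were above. Canx, the membrane-bound calnexin, had a log2 difference of 0.43 (SE 0.35).

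The sensors and their transcription factors split. Atf6 encodes a membrane-bound transcription factor released under stress (chr1:170704674-170867771, minus strand), and had 0.409, 20.6 and 1.03 CPM in treated and 32, 27.4 and 19.6 CPM in control light zone libraries, and 16.4, 22.4 and 4.97 CPM in treated and 0.206, 0.506 and 8.8 CPM in control dark zone libraries. Its light zone control libraries all lay above the dark zone control libraries, with a log2 difference of 3.05 (SE 1.62, edgeR unadjusted p = 0.0884, adjusted p = 1). Ddit3 encodes CHOP (chr10:127290774-127296288, plus strand), and had 0.234, 3.88 and 0.0516 CPM in treated and 47, 24.6 and 29.5 CPM in control light zone libraries, and 3.86, 1.71 and 26.2 CPM in treated and 0.206, 1.16 and 14 CPM in control dark zone libraries. Again the light zone control libraries all lay above the dark zone control libraries, although 2 of the dark zone ones were near 1 CPM or below, and the log2 difference was 2.71 (SE 1.73, edgeR unadjusted p = 0.147, adjusted p = 1). Atf4, the translationally controlled factor downstream of PERK, had 73.9, 70.04 and 98.7 CPM in treated and 31.9, 36.3 and 128 CPM in control light zone libraries, and 78.5, 63 and 138 CPM in treated and 281, 72.1 and 91.7 CPM in control dark zone libraries. Dark zone control replicate 1 was the highest library and the zones overlapped, with a log2 difference of -1.18 (SE 0.66). Ern1, which encodes the sensor IRE1, had 5.32, 3.02 and 4.44 CPM in treated and 5.82, 4.99 and 4.63 CPM in control light zone libraries, and 2.77, 2.75 and 3.04 CPM in treated and 4.93, 6.28 and 3.39 CPM in control dark zone libraries. Eif2ak3, which encodes PERK, had 22.3, 19 and 26.4 CPM in treated and 38.8, 45.2 and 6.9 CPM in control light zone libraries, and 28.6, 17.2 and 12.2 CPM in treated and 64.5, 65.7 and 26.1 CPM in control dark zone libraries. Neither sensor separated the zones in control mice, with log2 differences of 0.08 and -0.78.

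All 7 translocon genes were slightly higher in light zone control libraries, with a median log2 difference of 0.43 and a range of 0.08 to 0.63. Ssr4, a subunit of the translocon-associated TRAP complex, had 216, 49.1 and 192 CPM in treated and 234, 273 and 217 CPM in control light zone libraries, and 44.1, 42.5 and 88.8 CPM in treated and 168, 207 and 148 CPM in control dark zone libraries. The light zone control libraries lay above the dark zone control libraries by a log2 difference of 0.47 (SE 0.50), as they did for Ssr3, a further TRAP subunit, at 0.63 (SE 0.37). Sec61b had 864, 159 and 652 CPM in treated and 658, 814 and 790.5 CPM in control light zone libraries, and 199, 214 and 519.5 CPM in treated and 623, 822 and 664 CPM in control dark zone libraries, and Ssr1, Ssr2, Sec61a1 and Sec61g overlapped between the zones in control mice as Sec61b did. Of the signal peptidase subunits, Spcs2 had 1009, 276 and 1407 CPM in treated and 461, 1066 and 951 CPM in control light zone libraries, and 216, 324 and 1085 CPM in treated and 656, 730.2 and 874 CPM in control dark zone libraries. Spcs1, Spcs2 and Spcs3 had log2 differences of -0.03, 0.13 and 0.33 between the zones in control mice, all within 1 SE.

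Of the 7 degradation genes, 5 were higher in light zone control libraries, with a median log2 difference of 0.23. Herpud1, a stress-induced membrane protein of the degradation complex, had 153, 257 and 171 CPM in treated and 171, 180.4 and 254 CPM in control light zone libraries, and 195, 243 and 293 CPM in treated and 179, 67.3 and 186 CPM in control dark zone libraries. The zones overlapped in control mice, at a log2 difference of 0.48 (SE 0.41). Sel1l, the adaptor of the ubiquitin ligase encoded by Syvn1, had 37.8, 79.1 and 42.1 CPM in treated and 32.4, 40.9 and 33.4 CPM in control light zone libraries, and 73.1, 80.03 and 19.1 CPM in treated and 48, 78.8 and 47.8 CPM in control dark zone libraries. Its light zone control libraries all lay below the dark zone control libraries, at a log2 difference of -0.71 (SE 0.55, edgeR adjusted p = 1). Derl1, a derlin of the exit channel, was among the steadiest of the 39 genes and had 126, 112 and 125 CPM in treated and 111, 116 and 116 CPM in control light zone libraries, and 104, 142 and 79.2 CPM in treated and 103, 122 and 80.6 CPM in control dark zone libraries. Edem1 and Edem2, which trim the glycans of misfolded proteins, Derl2 and Syvn1 overlapped between the zones in control mice, at log2 differences of 0.23, 0.92, 0.48 and -0.12.

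Plasma cell markers were set beside this comparison. Their sum was 10980 to 13670 CPM in light zone control and 9182 to 12590 CPM in dark zone control libraries, ranges that overlap, and most of it was Jchain. Counted by gene, 7 of the 9 markers were higher in light zone control libraries, with a median log2 difference of 0.62, 0 of them called by edgeR or under an unadjusted p of 0.05. Irf4, a transcription factor of activated B cells and plasma cells, had 54.7, 39.3 and 17.7 CPM in light zone control and 0.274, 0 and 4.3 CPM in dark zone control libraries. Sdc1, a surface marker of plasma cells, had 0.131, 9.76 and 0.0926 CPM in light zone control and 0.0685, 0 and 0.159 CPM in dark zone control libraries. The 2 lower markers were Slamf7 and Mzb1. Slamf7 averaged 158 CPM in light zone control and 207 CPM in dark zone control libraries, and Mzb1 1909 and 1971 CPM. The markers include Xbp1, itself a factor of this pathway, so they are not separate from it. The part of these markers in the zone differences was not tested.

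**Figure D3:**
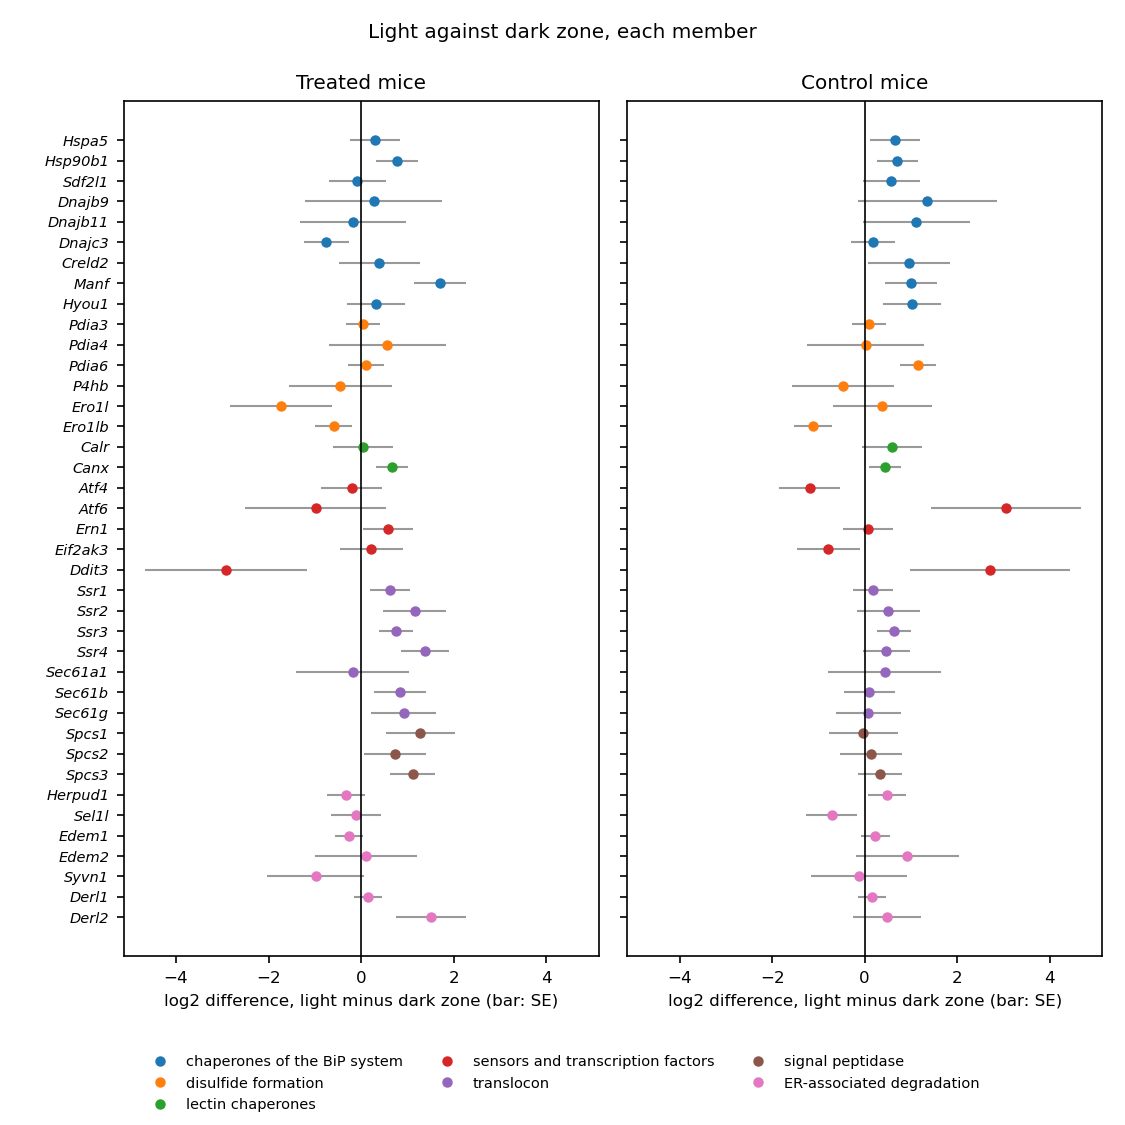
Log2 difference between light and dark zone (light minus dark, x axis) for each of the 39 genes (y axis), in treated mice on the left and in control mice on the right; points are edgeR estimates coloured by role and bars are 1 SE. In control mice all 9 points of the BiP block lie right of 0, and in treated mice 6 of the 9 do.

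In treated mice the zones were compared in the same way. Of the 39 genes, 25 were higher in the light zone and 14 in the dark zone, with a median log2 difference of 0.23, against 0.05 and 52.6% higher over all genes. Again edgeR called 0 of the 39 and 0% of all genes, DESeq2 called 1 gene (0.00855%), not among the 39, and 3 of the 39 were higher at an unadjusted p under 0.05, which 2.06% of all genes reached in either direction. These were Manf, at a log2 difference of 1.71 (SE 0.57, edgeR unadjusted p = 0.0122, adjusted p = 1), Ssr4, at 1.38 (SE 0.51), and Spcs3, at 1.11 (SE 0.49). Light zone treated libraries lay above all dark zone treated libraries for 2 genes, Canx and Spcs3, and for 2.24% of all genes, and below for 0 of the 39, against 3.55% of all genes (5.79% in either direction). Spcs3 had 226, 93.4 and 132 CPM in light zone treated and 57.2, 88.2 and 63.4 CPM in dark zone treated libraries. For Manf, light zone treated replicates 1 and 3 were above and replicate 2 was within the dark zone treated range. The median was -0.09 without light zone treated replicate 2, -0.02 without dark zone treated replicate 3, 0.15 without dark zone treated replicate 1, 0.26 without light zone treated replicate 3, 0.34 without light zone treated replicate 1 and 0.45 without dark zone treated replicate 2. It was 0.56, with 26 of 39 higher, against 0.09 and 54.0% over all genes, without the 3 libraries that stood apart. That leaves 1 dark zone treated library. Because 2 of the 3 are dark zone libraries, this comparison also sets libraries of low plasma cell sums, mostly Jchain, against higher ones. The sums were 1998 to 11450 CPM in light zone treated and 2450 to 8230 CPM in dark zone treated libraries. Their part was not tested.

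Treated and control libraries were then compared within the dark zone. Of the 39 genes, 22 were higher and 17 lower in treated libraries, with a median log2 difference of 0.26. Of all tested genes 52.2% were higher, with a median of 0.06. By edgeR 0 of the 39 and 0% of all genes passed, 4 of the 39 were under an unadjusted p of 0.05 (Pdia6 higher, Ssr4, Sec61g and Spcs1 lower) against 8.9% of all genes, and DESeq2 called 72 genes (0.616%) but 0 of the 39. Groups did not overlap for 13 of the 39 genes, against 23.7% of all genes. Treated libraries were all higher for Pdia3, Pdia6, Dnajb11, Herpud1, Edem1 and Edem2, and all lower for Sec61b, Sec61g, Ssr3, Ssr4, Spcs1, Manf and Ern1.

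The roles went in different directions. Of the BiP group 7 of 9 were higher (median log2 difference 0.44), of disulfide formation 5 of 6 (median 0.90) and of degradation 5 of 7 (median 0.58), while 5 of 7 translocon genes (median -1.03) and 3 of 3 signal peptidase subunits (median -0.53) were lower. Pdia6 averaged 251 ± 80.1 CPM in dark zone treated and 121 ± 45.3 CPM in dark zone control libraries (SD, n = 3 each), a log2 difference of 1.05 (SE 0.39, edgeR unadjusted p = 0.0226, adjusted p = 0.528). It was 0.97 (SE 0.46, edgeR adjusted p = 1) without the 3 libraries that stood apart, a fit with 1 dark zone treated library left. Sec61g had 129, 114 and 523 CPM in dark zone treated and 861, 1087 and 800.4 CPM in dark zone control libraries, a log2 difference of -1.84 (SE 0.72, edgeR unadjusted p = 0.0272, adjusted p = 0.528). Spcs1 (chr14:30999826-31001672, minus strand) had 112, 149 and 591 CPM in dark zone treated and 1020, 1113 and 894 CPM in dark zone control libraries, a log2 difference of -1.83 (SE 0.76, edgeR unadjusted p = 0.0363, adjusted p = 0.528). In both, replicates 1 and 2 were lowest and replicate 3 lay between them and the controls. Without replicates 1 and 2 the log2 differences were -0.79 for Sec61g, -0.76 for Spcs1 and -0.96 for Ssr4, which had -1.57 with them. That leaves 1 treated library, assumed to vary like the other groups. In it 14 of the 39 genes were higher and 25 lower, with a median of -0.16, and all 7 translocon genes were lower. Over all genes 45.3% were then higher, with a median of -0.11. Hspa5 then had a log2 difference of -0.40, against 0.66 with all libraries. The medians by role were then -0.40 for the BiP group, 0.22 for disulfide formation, 0.01 for degradation, -0.52 for the translocon and -0.65 for signal peptidase. With all libraries but 1 the median over the 39 was 0.01 without dark zone treated replicate 2, 0.06 without dark zone control replicate 3 and 0.42 without dark zone control replicate 2.

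Within the light zone, 21 of the 39 genes were higher and 18 lower in treated libraries, with a median log2 difference of 0.07. Of all tested genes 54.1% were higher, with a median of 0.10. The edgeR test called 0 of the 39 and 0% of all genes, 1 of the 39 (Ddit3) and 7.36% of all genes were under an unadjusted p of 0.05, and DESeq2 called 216 genes (1.85%) but 0 of the 39. Treated libraries lay below all control libraries for 5 genes (Ddit3, Dnajb9, Sec61g, Ssr3 and Ssr4), as 5.49% of all genes did, and above for 0 of the 39, against 5.82%. Ddit3 had 0.234, 3.88 and 0.0516 CPM in light zone treated and 47, 24.6 and 29.5 CPM in light zone control libraries, a log2 difference of -4.58 (SE 1.89, edgeR unadjusted p = 0.0344, adjusted p = 0.674). Treated replicates 1 and 3 were at or near the floor of 3 counts. Dnajb9 had 0, 10.9 and 51 CPM in light zone treated and 58.4, 65.5 and 78.2 CPM in light zone control libraries, and treated replicate 1 had no count. The next smallest unadjusted p values belonged to Ero1l, at a log2 difference of -2.31 (SE 1.12), Pdia3 at 0.72 (SE 0.37) and Ero1lb at 0.78 (SE 0.41). Without light zone treated replicate 2 the median over the 39 was -0.16, and without each of the other light zone libraries in turn 0.01 to 0.09. In the fit without all 3 libraries that stood apart it was -0.15, with 16 of 39 genes higher, against -0.04 and 48.0% over all genes. The log2 difference of Ddit3 was then -7.82.

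**Figure D4:**
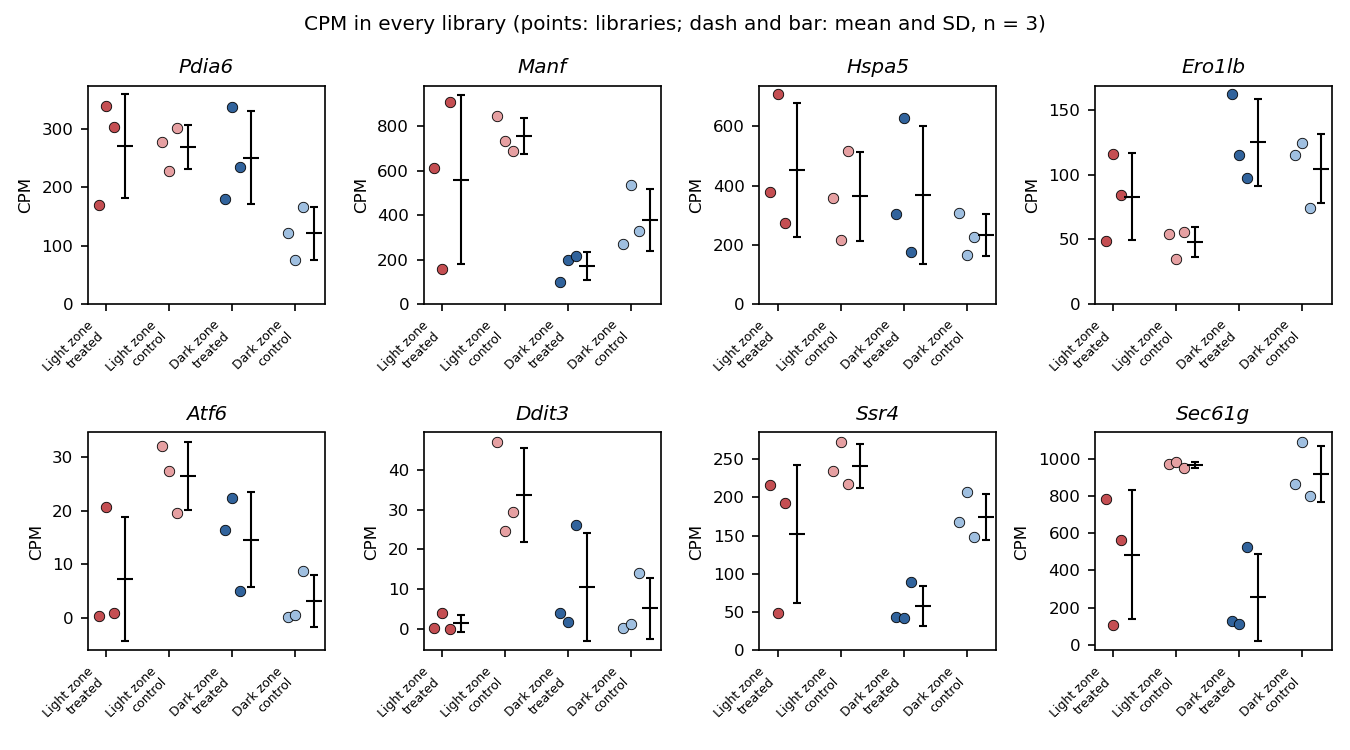
CPM of 8 genes (y axes, each from 0 or the lower end of an error bar) in every library, by group (x axes); points are libraries and the dash with its bar is the mean ± SD of 3. Pdia6 and Manf are high in light zone control against dark zone control, Ddit3 is near 0 in light zone treated libraries, and Sec61g and Ssr4 are lowest in 3 treated libraries.

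Averaged over both zones, treated libraries were higher for 21 of the 39 genes and lower for 18, with a median log2 difference of 0.08. Of all tested genes 53.9% were higher, with a median of 0.11. The edgeR test called 0 of the 39 and 0% of all genes, and DESeq2 called 745 genes (6.37%) but 0 of the 39, with 0.054 the smallest DESeq2 adjusted p among them. At an unadjusted p under 0.05 there were 5 of the 39, against 16.7% of all genes: Pdia3 higher at 0.75 (SE 0.26), and Ssr4 at -1.12 (SE 0.36), Sec61g at -1.42 (SE 0.50), Ssr3 at -0.69 (SE 0.26) and Spcs1 at -1.18 (SE 0.53) lower. Pdia3 had 186, 426 and 388 CPM in treated and 245, 181 and 179 CPM in control light zone libraries, and 264, 435 and 271 CPM in treated and 145, 210.2 and 212 CPM in control dark zone libraries. Without the 3 libraries that stood apart Pdia3 was at 0.53, Ssr4 at -0.59 and Sec61g at -0.65. The median over the 39 was then -0.32 (13 higher, 26 lower), against -0.11 and 43.9% higher over all genes. Without dark zone treated replicate 2 alone it was -0.05, and without dark zone treated replicate 3 it was 0.22.

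Whether the treatment difference itself differed between the zones was tested with an interaction term, light zone minus dark zone. It was above 0 for 20 of the 39 genes, against 55.5% of all genes, with a median of 0.03, against 0.15 over all genes. By edgeR 0 of the 39 and 0% of all genes passed, with 1 of the 39 (Ddit3) and 2.28% of all genes under an unadjusted p of 0.05, while DESeq2 called 16 genes (0.137%) and 0 of the 39. Ddit3 had a difference of -5.63 (SE 2.46, edgeR unadjusted p = 0.044, adjusted p = 1), Atf6 of -4.03 (SE 2.21), Pdia6 of -1.04 (SE 0.55) and Herpud1 of -0.82 (SE 0.58). The median was -0.27 without light zone treated replicate 2 and 0.27 without dark zone treated replicate 2. Without the 3 libraries that stood apart it was 0.20, with 23 of 39 genes above 0, against 0.10 and 54.0% over all genes. The difference was then -10.20 for Ddit3, -5.84 for Atf6, -1.15 for Pdia6 and -1.34 for Herpud1, with 1 dark zone treated library left. The values of Ddit3 and Atf6 rest on libraries at or near the floor. In all 4 genes, the light zone difference between treated and control was below the dark zone one. For Pdia6, treated and control light zone libraries averaged 271 ± 88.8 and 269 ± 38.1 CPM (SD, n = 3 each), a log2 difference of 0.01 (SE 0.39).

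The 3 libraries that stood apart lay at 1 end of the range for 16 of the 39 genes. In them 10 genes lay below all other 9 libraries (Spcs1, Spcs2, Sec61b, Sec61g, Ssr2, Ssr3, Ssr4, Derl2, Manf and Ern1), which 16.7% of all genes did. Another 6 lay above all other 9 (Calr, P4hb, Pdia4, Sec61a1, Syvn1 and Edem2), which 13.7% of all genes did. Subunits of the same Sec61 channel were on both sides, Sec61a1 with 100.2 to 157 CPM in the 3 and 3.35 to 60.4 CPM in the other 9, and Sec61g with 105 to 129 CPM in the 3 and 523 to 1087 CPM in the other 9. Degradation genes were also on both sides. Syvn1, the ubiquitin ligase, had 127 to 147 CPM in the 3 and 10.8 to 73.4 CPM in the other 9, and Derl2, a derlin, had 29.4 to 53.2 CPM in the 3 and 93.2 to 369 CPM in the other 9. The coding sequence of the 10 lower genes was 204 to 717 bases long except for Ern1 at 2931 bases, and that of the 6 higher genes 1248 to 1923 bases. Of all 13 genes of up to 717 bases 9 were among the lower genes, while Ddit3, Spcs3, Sdf2l1 and Dnajb9 were not. Of the 12 genes of 1248 to 1923 bases 6 were among the higher genes. No share over all tested genes of these lengths is given. These counts therefore do not set the 39 genes apart from other genes of like length. The 3 libraries were picked by their place on the first component, so these ranges are a description. The part of coding length in the treatment differences, and that of the macrophage, T cell and plasma cell markers given above, was not tested.

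The 39 genes did not move as 1 block across libraries. The median Pearson correlation of log2 CPM between pairs of them was 0.02 over the 12 libraries, against -0.005 between 1 of them and any other gene, and 8.37% of the 741 pairs were above 0.7, against 5.63%. The closest pairs were Sec61g with Spcs1 (0.98) and Sec61b with Spcs1 (0.98), at 0.75 and 0.71 once the 3 outlying libraries were left out. Ssr3 and Ssr4 had 0.95 over 12 and 0.94 over 9 libraries, and Atf6 and Ddit3 0.78 and 0.91. Pairs in opposition included Syvn1 with Derl2, at -0.92 over 12 and -0.77 over 9 libraries. These values share libraries and groups and are given as a description.

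Genes with and without the stress element were set side by side. Between the zones in control mice, 9 of the 11 genes with an ERSE or ERSE-II were higher in the light zone, with a median log2 difference of 0.59, against 16 of the 21 genes whose window held neither, with a median of 0.13. Ero1lb and Syvn1 were the exceptions among the 11. Between the zones in treated mice the order of the medians was the other way, with 6 of the 11 higher in the light zone (median 0.04) and 14 of the 21 (median 0.27). For treatment in the dark zone, 10 of the 11 were higher (median 0.66) and 8 of the 21 (median -0.48). Without the libraries that stood apart, 4 of the 11 (median -0.11) and 9 of the 21 (median -0.09) were higher in treated dark zone libraries. For treatment in the light zone, 7 of the 11 (median 0.31) and 11 of the 21 (median 0.07) were higher, and 2 of the 11 (median -0.31) and 9 of the 21 (median -0.06) without those libraries. The difference between the sets was not tested, and its size and order changed with the comparison and with the libraries used.

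Further genes of the pathway were taken from lists of 80 genes, of which 73 were measured and tested, and edgeR called 0 of the 73 in any of the 6 comparisons. Xbp1, the transcription factor spliced by IRE1, had 225, 158 and 167 CPM in treated and 28.9, 219.6 and 163 CPM in control light zone libraries, and 133, 238 and 225 CPM in treated and 68, 40.03 and 160.5 CPM in control dark zone libraries. Treated and control dark zone libraries overlapped, with a log2 difference of 1.15 (SE 0.68, edgeR unadjusted p = 0.121, adjusted p = 0.543), and gene counts do not show splicing. Between the zones in control mice its log2 difference was 0.62 (SE 0.68). Of 12 genes of oligosaccharyltransferase and glycan quality control, 8 were higher in light zone control libraries. Ddost, a subunit of oligosaccharyltransferase, had 107, 129 and 108 CPM in light zone control and 33.6, 31.2 and 66.7 CPM in dark zone control libraries without overlap, a log2 difference of 1.39 (SE 0.47, edgeR unadjusted p = 0.0137, adjusted p = 1). Ganab, the catalytic subunit of glucosidase II, had 80.1, 56.5 and 36 CPM in light zone treated and 13.2, 17.4 and 18.9 CPM in light zone control libraries, a log2 difference of 1.80 (SE 0.49, edgeR unadjusted p = 0.00374, adjusted p = 0.674). Of 13 further degradation genes, Vcp, the ATPase that extracts proteins from the membrane, had 385, 386 and 157 CPM in dark zone treated and 43.1, 97 and 83.8 CPM in dark zone control libraries, a log2 difference of 2.05 (SE 0.63, edgeR unadjusted p = 0.00771, adjusted p = 0.528). Its 2 highest dark zone values were the libraries that stood apart, and without them the log2 difference was 1.09.

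Of 17 genes that ATF4 is known to raise, 17 were higher in dark zone treated libraries (median log2 difference 1.32), against 52.2% of all genes, with 0 under an unadjusted p of 0.05. Without the libraries that stood apart 10 of 16 were higher (median 0.36). In the light zone, 12 of 17 were higher in treated libraries (median 0.79), against 54.1% of all genes, and 6 of 16 (median -0.18) without those libraries. Chac1, an enzyme that degrades glutathione, had 3.51, 1.32 and 13.4 CPM in light zone treated and 0.393, 0.344 and 0 CPM in light zone control libraries. Between the zones in control mice 10 of 17 were higher in the light zone (median 0.19). Counts for the other lists between the zones in control mice were 6 of 11 further folding factors higher, 9 of 13 signal recognition and translocon genes, 5 of 13 further degradation factors, and 4 of 7 sensor partners including Xbp1.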

How the data were processed

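Expression was measured by sequencing cDNA of 1000 sorted germinal center B cells per library (SMART-Seq v4 Ultra and Nextera XT kits, per the labels' protocols), in 12 libraries of 4 groups. The authors used BWA and the mouse build mm10, per the submitters' processing notes; of its version, the counter and the annotation the sources used here give nothing. The deposited values are expected counts per gene symbol, unscaled. They are whole or midway between whole numbers; midway values, found for 8 of the 39 genes, were rounded up, and blank cells were read as 0. How midway values arose is not given, and if they are averages over transcripts they are not counts per gene. Totals were 16032746 to 26837714 counts.

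From these, CPM were obtained after TMM scaling of library sizes, and genes kept by filterByExpr (minimum count 10, minimum total 15) were tested with edgeR 4.0.16 (R 4.3.3) by the robust quasi-likelihood test, 1 fit of all 12 libraries with a term per group and 6 contrasts. P-values are two-sided and adjusted by Benjamini-Hochberg over the 12081 genes tested. The SE is the absolute log2 difference divided by the square root of F. The fit was checked on counts simulated with the spread of these data, for light against dark zone in control. It recovered 0 of 50 genes changed 2-fold, 3 of 50 at 4-fold, 17 of 50 at 8-fold and 24 of 50 at 16-fold. A count of 0 genes called therefore does not show that genes were unchanged. DESeq2 1.42.0, RLE size factors, no filter, only the groups compared, a replicate block, and leaving out single libraries or the 3 that stood apart were alternatives. Lengths and positions are from GENCODE M21, promoter windows from RefSeq (GRCm38.p6), and copies were searched with blastn 2.17.0. Genes named with values are a fixed core by role, the 4 with the smallest unadjusted p per comparison and, of the further lists, Xbp1 and up to 3 genes per list by p; members, lists and tests were chosen with earlier results of these data known.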

Additional observations from a re-analysis of the deposited data

Results flagged for a closer look

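For 3 of the 39 genes, every library of 1 group lay on 1 side of the other group's mean. In the matching comparison every library lay on the opposite side. The share of all tested genes with this pattern was not worked out, so the count does not set the 39 genes apart. Single libraries set some of these means, as in Ddit3 (dark zone treated 3.86, 1.71 and 26.2 CPM) and Atf4 (dark zone control 281, 72.1 and 91.7 CPM). The interaction term of edgeR is given for these 3 genes, which were picked for this pattern in the same values. Atf6 had a log2 difference between treated and control libraries of 2.20 in the dark zone and -1.83 in the light zone, with all 3 treated libraries above the control mean in the dark zone and below it in the light zone. The interaction was -4.03 (SE 2.21, edgeR unadjusted p = 0.0957, adjusted p = 0.9999), and it ranged from -7.38 to -3.48 when single libraries were left out. Ddit3 had a log2 difference between light and dark zone of -2.91 in treated and 2.71 in control mice, with an interaction of -5.63 (SE 2.46, edgeR unadjusted p = 0.044, adjusted p = 0.9999) and a range of -8.86 to -3.70. Atf4 had a log2 difference between treated and control libraries of -0.67 in the dark zone and 0.31 in the light zone, with an interaction of 0.98 (SE 0.92, edgeR unadjusted p = 0.313, adjusted p = 0.9999). None passed the adjusted threshold.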

How the results depend on the processing

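Under every alternative run with edgeR, 0 genes were called in each comparison that it covered. The fit of only the groups compared did not cover treatment averaged over zones or the difference of treatment effects. Leaving out a single library was run only for comparisons that use its group. The differences of the 4 genes with the smallest unadjusted p per comparison kept their sign under each alternative run for it, DESeq2 included. DESeq2 called 72 genes for treatment in the dark zone, 216 in the light zone, 113 for zone in control, 1 for zone in treated, 745 for treatment averaged over zones and 16 for the difference of treatment effects, none of them among the 39. Without the 3 libraries that stood apart the median over all tested genes was -0.108 (treatment, dark zone), -0.0378 (treatment, light zone), -0.108 (averaged), 0.0918 (zone in treated) and 0.0973 (difference of treatment effects). The median log2 difference of the 39 genes was then -0.157 (treatment, dark zone), -0.147 (treatment, light zone), -0.316 (averaged), 0.561 (zone in treated) and 0.201 (difference of treatment effects). The causes were not tested. Leaving out single libraries, it ranged from 0.0101 to 0.416 for treatment in the dark zone, -0.156 to 0.0874 in the light zone, -0.0515 to 0.221 averaged, 0.194 to 0.45 for zone in control, -0.0946 to 0.45 for zone in treated, and -0.273 to 0.272 for the difference of treatment effects, with 0 genes called throughout. When single libraries were left out, this median kept its sign only for zone in control and for treatment in the dark zone. The 3 libraries that stood apart are all treated, so leaving them out could move zone in control little. Ddit3, Atf6 and Dnajb9 had at least 1 library at or near the floor of 3 counts, so their differences are less certain. For Ddit3, light zone treated libraries had 0.0516 to 3.88 CPM and light zone control libraries 24.6 to 47 CPM. Their totals overlapped, at 19392252 to 26837714 and 17307186 to 24313510 counts. Blank cells, read as 0, numbered 17 to 24 in the 3 libraries that stood apart and 252 to 828 in the others. The part of such missing counts in the differences was not tested.

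Deviations from group means correlated above 0.1 in 3 of 6 same-numbered pairs of dark and light zone libraries, and 2 of 6 libraries correlated best with their own number, so the numbers are not shown to pair the libraries. With the replicate block edgeR called 0 genes in each comparison, and the median was 0.263 (treatment, dark zone), 0.0206 (light zone), 0.341 (zone in control) and 0.147 (zone in treated). No call changed under the block.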
